A study of Danio rerio with 31 samples.

Results

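The serotonin genes of a zebrafish brain study described here are tph2 (ENSDARG00000057239), slc6a4 (ENSDARG00000061165), fev (ENSDARG00000009242) and htr7a (ENSDARG00000056949). They were taken by gene ID for slc6a4 and by symbol for the other 3, and each matched 1 row. They make up 4 of the 15648 genes measured. Brains came from sexually mature fish aged 1 year, all labelled as controls, of 4 populations: the wild populations Nadia and Pargana (Pargana North in the sample titles) and the domesticated populations Scientific Hatchery and Transgenic Mosaic 1. Each of 31 one-colour arrays holds the RNA of a brain sample from 1 fish. Telencephalon was measured on 15 arrays (8 wild and 7 domesticated fish, 7 males and 8 females) and midbrain on 16 (8 wild and 8 domesticated fish, 7 males and 9 females). Every group of region and population has 4 arrays, apart from Scientific Hatchery telencephalon with 3. All groups share the age and the control label, and the labels do not say which transgene, if any, Transgenic Mosaic 1 fish carry. Arrays carry the labels' own codes, T for telencephalon and M for midbrain followed by a fish number, so that T109 and M109 share a number. The labels do not state that a shared number is the same fish.

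Serotonin neurons are few and lie in clusters, of which the raphe nuclei of the brainstem are the best known, and their axons reach most of the brain. Tryptophan hydroxylase carries out the first and rate-limiting step from tryptophan to serotonin, and tph2 encodes the form typical of raphe neurons. The transporter encoded by slc6a4 takes released serotonin back up into the neuron, and fev (Pet1 in the mouse) encodes the ETS transcription factor that switches on this set of genes in raphe neurons. These 3 genes are therefore active together in the serotonin-making neurons of the raphe, to which tph2 and slc6a4 need not be confined. By contrast, htr7a encodes a receptor that stimulates adenylate cyclase in the cells that receive serotonin. In fish the pineal organ also makes serotonin, there as the precursor of melatonin. Clusters of serotonin cells outside the raphe occur in the fish hypothalamus.

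Values are the deposited log2 values after robust multi-array averaging (RMA), in which a difference of 1 is a doubling of intensity. Array medians lay between 9.57 and 9.74, single values between 3.50 and 15.48, and no 2 arrays were identical. Levels of different genes are not compared, because probes differ in how brightly they bind. Tissue markers were read beside the regional labels. Their lists were chosen with earlier results of these data known, so this is no independent check. Of 14 telencephalon rows 12 were higher and 1 was lower in telencephalon, and 14 of 14 midbrain rows were lower there. Of all genes 21.6% were higher and 22.1% lower there. The median differences of these 2 lists were 3.30 and -4.94 on the log2 scale. One telencephalon array stood apart from the others. T109, from a Transgenic Mosaic 1 female, exceeded every other telencephalon array by more than 2 on the log2 scale in 76 genes (0.486% of all), against 0 to 15 genes for the other 14 arrays. The main results of the 4 genes that rest on it are given with and without it. Most genes of the lists used below are given only with it. Its values, and those of the midbrain array M21, are described in full after the comparison of regions.

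All 4 genes differed between the regions: tph2, slc6a4 and fev were lower in telencephalon, and the receptor gene htr7a was higher there. The difference, telencephalon minus midbrain, was taken as the mean over the 4 populations in a limma fit of all arrays, with p-values adjusted over all genes and a threshold of 0.05. Shared fish numbers were not used in this fit. The regions differ so widely that 43.6% of all genes passed this test, 21.6% as higher and 22.1% as lower in telencephalon, so that passing it does not set these genes apart. Values that did not overlap between the regions at all were found for 6.13% of genes, among them slc6a4 and htr7a.

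The hydroxylase tph2 ran from 4.52 over a median of 8.19 to 13.57 on the telencephalon arrays, against 10.63, 11.13 and 12.09 on the midbrain arrays. On all telencephalon arrays but 1 it was below the whole midbrain range, the second highest value being 9.03 in T12. The exception was T109, which at 13.57 was above every midbrain array. Averages were 8.16 ± 1.84 in telencephalon (SD, n = 15) and 11.23 ± 0.38 in midbrain (SD, n = 16), and the telencephalon average without T109 was 7.77 ± 1.12 (SD, n = 14). The fitted difference was -3.09 (SE 0.40, adjusted p = 5.33e-07), an 8.52-fold lower intensity in telencephalon. Without T109 it was -3.37 (SE 0.27, adjusted p = 3.22e-10).

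The transporter slc6a4 had the largest difference of means of the 4 genes. It ran from 5.43 over a median of 6.41 to 9.33 in telencephalon, against 10.08, 10.96 and 11.46 in midbrain. No telencephalon array reached the lowest midbrain array, although T109, again the highest, came within 1 of it. Telencephalon averaged 6.57 ± 1.01 (SD, n = 15) and midbrain 10.88 ± 0.37 (SD, n = 16). The difference of -4.37 (SE 0.21, adjusted p = 5.74e-15) is 20.7-fold, and by size it ranked 36 among all genes. It was -4.49 (SE 0.17) without T109, which was the highest telencephalon array by 1.76 over T12 at 7.57.

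The transcription factor gene fev followed the same direction with a smaller difference. Its lowest, median and highest values were 4.72, 6.08 and 6.99 in telencephalon and 6.68, 8.23 and 8.89 in midbrain. The ranges overlapped through 1 midbrain array, M98 of a Nadia male at 6.68. It lay below T140 (6.70), T98 (6.87), T57 (6.96) and T123 (6.99). Averages were 6.08 ± 0.67 in telencephalon (SD, n = 15) and 8.09 ± 0.50 in midbrain (SD, n = 16), and the fitted difference was -1.95 (SE 0.19, adjusted p = 3.22e-09), or 3.88-fold. T109 was not high in fev: at 5.61 it lay in the lower part of the telencephalon range. No detection calls were used here, and whether the lowest telencephalon values of tph2, slc6a4 or fev stand above background was not tested.

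The receptor gene htr7a went the other way and varied least. It ran from 10.75 over 11.14 to 11.82 in telencephalon, against 7.62, 7.99 and 8.61 in midbrain, with a gap of more than 2 between the closest arrays. Telencephalon averaged 11.18 ± 0.31 (SD, n = 15) and midbrain 8.05 ± 0.30 (SD, n = 16). The difference was 3.12 (SE 0.12, adjusted p = 8.94e-17), 8.67-fold higher in telencephalon.

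**Figure D1:**
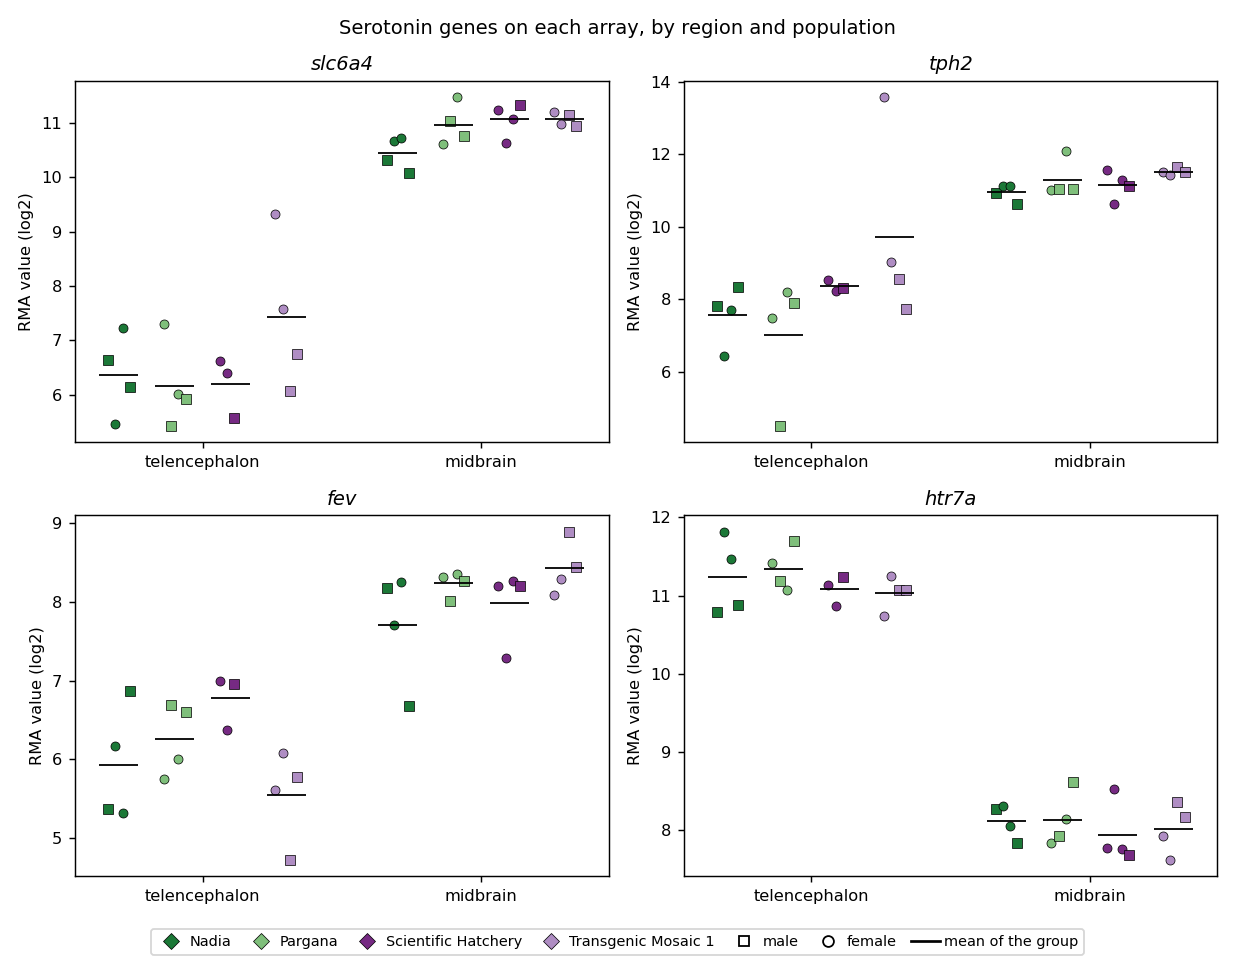
Log2 RMA value of slc6a4, tph2, fev and htr7a on each of the 31 arrays, with telencephalon left of midbrain, 1 colour per population, squares for males, circles for females and a line at each group's mean. The slc6a4 and htr7a values do not overlap between regions, tph2 overlaps only through the female Transgenic Mosaic 1 array at 13.57, and fev through 1 midbrain array at 6.68.

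Where 1 fish number occurs in both regions the 2 arrays can be set against each other, which gives 15 differences. For slc6a4 all 15 were negative, from -5.74 to -1.86 with a median of -4.19, and the smallest gap was that of T109 and M109. For tph2, 14 of 15 were negative with a median of -3.13, and T109 minus M109 gave 2.06. The fev differences were negative in 14 of 15 and stood at 0.18 for T98 and M98, M98 having the lowest midbrain value. All 15 differences of htr7a were positive, from 2.52 to 3.64. Over all genes, deviations from the group means matched an array best with its own number in 13 of 15 pairs. The exceptions are T98 with M98 (r = 0.131) and T106 with M106 (r = 0.121), all from Nadia males. T98 matched M106 better and T106 matched M98 better, so the single fev exception comes from a pair that is in doubt.

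Markers of neighbouring tissue were read in the same comparison. Over all genes 43.6% passed it, 21.6% as higher and 22.1% as lower in telencephalon. The mean of 10 hindbrain rows, most of them HOX genes, was near the low end of the table in both regions, between 4.89 and 5.58 in telencephalon and between 4.88 and 5.59 in midbrain, with 1 row higher, 2 lower and a median difference of 0.01, and values this low say little about hindbrain tissue. Cerebellar genes did differ: 11 of 14 were lower in telencephalon and 0 higher, and their mean was 9.84 to 10.42 in telencephalon against 11.54 to 12.32 in midbrain. Of 16 hypothalamic and diencephalic rows 8 were lower and 1 was higher, with a mean of 6.49 to 9.02 in telencephalon and 7.33 to 10.22 in midbrain. The 7.33 was that of M57 alone. Every other midbrain array was at 9.38 or more, above every telencephalon array. How much of the serotonin gene difference goes with the tissue cut into each sample was not tested. Fewer serotonin cells in a sample and less RNA per cell cannot be told apart in RNA of whole tissue.

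The direction was the same in each of the 4 populations for all 4 genes, and 15 of the 16 differences passed. Of all genes, 19.1% passed this test for Nadia, 21.3% for Pargana, 15.5% for Scientific Hatchery and 20.2% for Transgenic Mosaic 1. The narrowest span was that of htr7a, with differences of 3.13 for Nadia, 3.22 for Pargana, 3.10 for Scientific Hatchery and 3.02 for Transgenic Mosaic 1. Taken in that order, slc6a4 stood at -4.07, -4.80, -4.99 and -3.63.

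The tph2 differences were -3.38 for Nadia, -4.27 for Pargana, -2.91 for Scientific Hatchery (adjusted p = 0.0195) and -1.80 for Transgenic Mosaic 1 (SE 0.77, adjusted p = 0.11). The last is the 1 of 16 that did not pass, and without T109 it was -3.01 (SE 0.57, adjusted p = 3.8e-04). The tph2 call in Scientific Hatchery was lost when T47, T123 or M57 was left out, with adjusted p-values up to 0.0761. The fev differences were -1.78, -1.98, -1.18 and -2.88 from Nadia to Transgenic Mosaic 1. That of Scientific Hatchery was close to the threshold (adjusted p = 0.0448) and held in 23 of 45 alternative settings. It was lost with fish number as a fixed block (-1.12, adjusted p = 0.187), after quantile normalization over all arrays (-1.14, adjusted p = 0.0564), without Pargana (0.0669), without Transgenic Mosaic 1 (0.0647), without the Pargana arrays numbered 21 (0.0566), without T109 and M21 (0.0577) and in 16 of the 31 fits that leave out 1 array, where the adjusted p ran from 0.0179 to 0.162.

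Whether the regional difference depended on the population was tested with a moderated F test, which 0.0256% of genes passed. None of the 4 did, with F = 2.34 for slc6a4, 1.77 for tph2, 3.52 for fev and 0.13 for htr7a and an adjusted p of 1 for each. Of all genes 600 had an unadjusted p under 0.05 in this test, fev among them.

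**Figure D2:**
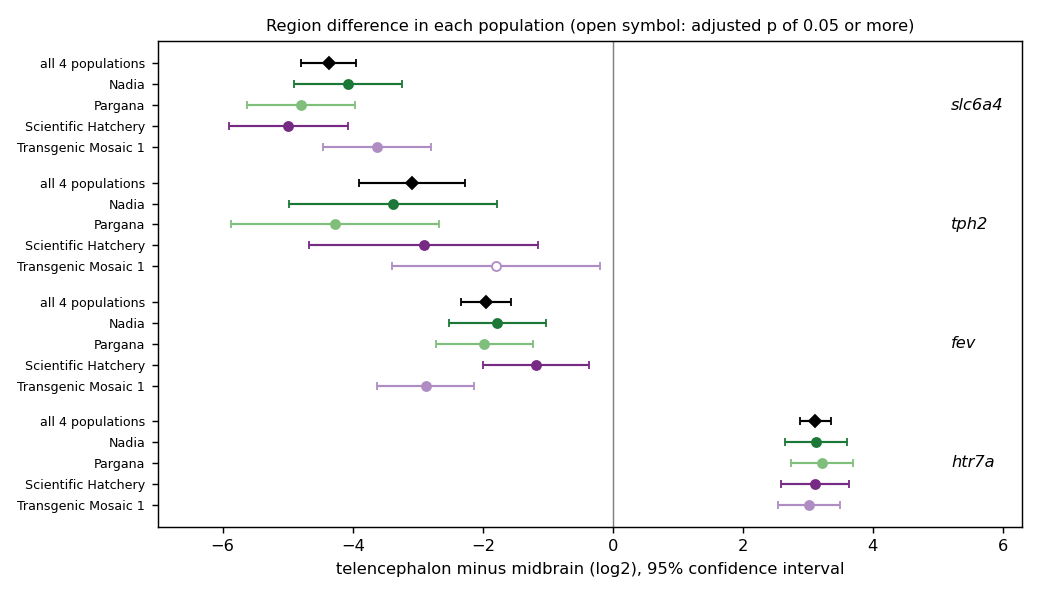
Difference between telencephalon and midbrain (log2, x axis) for each gene, as the mean of all 4 populations (diamonds) and in each population (circles), with 95% confidence intervals; open symbols have an adjusted p of 0.05 or more. All differences of slc6a4, tph2 and fev are below 0 and all of htr7a above it, and the 1 open symbol is tph2 in Transgenic Mosaic 1 at -1.80.

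T109 was high in tph2 and slc6a4 together with other genes of serotonin synthesis and with genes of photoreceptor-type cells, and it was not high in fev. Among all genes, tph2 ranked 11 by the margin of T109 over the next telencephalon array, 4.54. The genes above it in that ranking include saga, CNGA1, PDE6H, guca1aa and crx, which belong to the light response of photoreceptors or to their specification. The TPH1 row ENSDARG00000029432, a second tryptophan hydroxylase, stood at 12.65 in T109 against 4.98 to 9.78 on the other 14. DDC, the decarboxylase that completes serotonin synthesis, stood at 10.99 against 6.20 to 8.33, and GCH1, which starts the synthesis of the hydroxylases' cofactor, at 9.38 against 6.84 to 8.10. The melatonin enzyme gene aanat2, active in the pineal organ, stood at 13.49 against 8.99 to 10.88. These 4 were thus clear of the other telencephalon arrays.

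Genes of serotonin handling that were not raised in T109 were fev at 5.61, the vesicle transporter SLC18A2 at 11.99 (11.90 to 12.89 on the others), slc6a4b at 6.49 (5.75 to 8.55), the other TPH1 row (ENSDARG00000036082) at 7.45 (7.34 to 8.86) and asmt2 at 8.93 (8.41 to 10.25). Its htr7a value of 10.75 was the lowest in telencephalon. Some rows of the same lists were raised, however. Of 13 rows for transcription factors of serotonin neurons, 1 other than fev was highest in T109, by more than 2, beside 0.486% of all genes. In serotonin synthesis, storage, uptake and breakdown 6 of 17 rows were highest there, 3 of them by more than 2. PCBD1 was among the 6, at 10.41 against 10.07 in T63. Of 12 pineal, retina and lens rows 8 were highest in T109, 6 of them by more than 2: crx reached 10.24 (4.06 to 5.66 on the others), PDE6H 10.45 (4.00 to 5.55), GNAT1 12.50 (5.88 to 9.95) and rcvrna 11.14 (5.50 to 7.85). The mean of that list was 9.02 in T109, 7.41 in the next array, T106, and 6.41 at the median of the region. The hypothalamic list was low in T109 at 6.63 and lowest in T12 at 6.49, against a median of 8.28. The part of these other genes' cells in the tph2 and slc6a4 values of T109 was not tested.

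**Figure D3:**
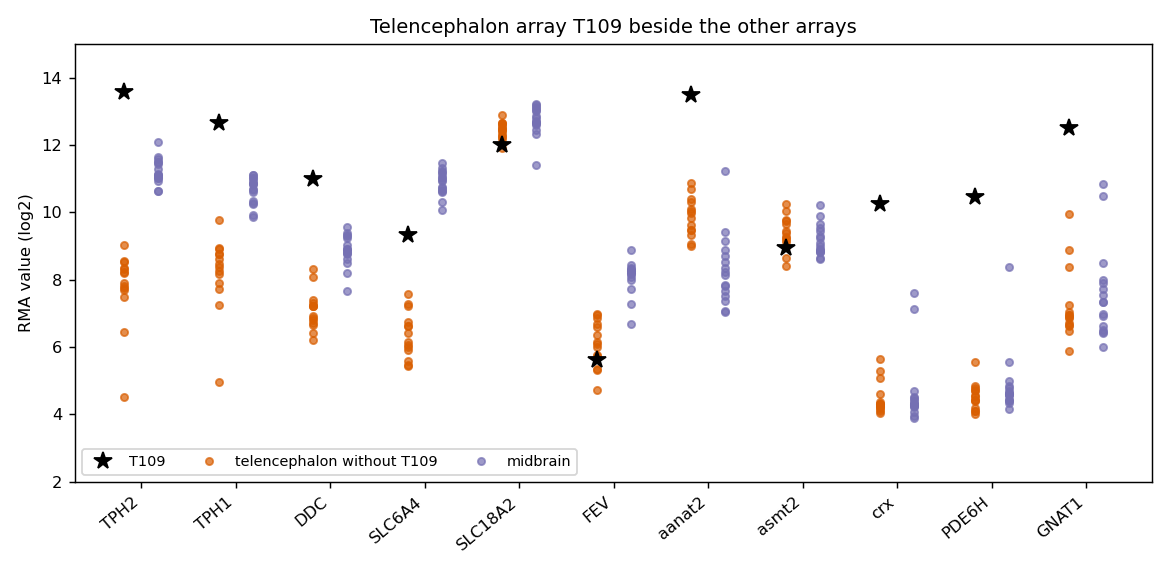
Log2 RMA value of 11 genes on T109 (stars), the other 14 telencephalon arrays and the 16 midbrain arrays. T109 lies above all other telencephalon arrays in TPH2, TPH1 (ENSDARG00000029432), DDC, SLC6A4, aanat2, crx, PDE6H and GNAT1, and within their range in SLC18A2, FEV and asmt2.

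In midbrain, M21, labelled as from a Pargana female, was the highest array in some of these genes and not in others. M21 was the highest midbrain array in tph2 (12.09, the next being M63 at 11.64), in slc6a4 (11.46), in TPH1 ENSDARG00000029432 (11.12), in GCH1 (8.79) and in aanat2 (11.23, against a median of 8.19). It was also the highest in crx (7.61), PDE6H (8.39) and rcvrna (8.62), and its fev value of 8.36 was the third highest. The genes aanat2, crx, PDE6H and rcvrna are from the 12 pineal, retina and lens rows, and the other rows are not given for M21. DDC did not follow, at 8.93 against a midbrain median of 8.90. M98, second in the pineal, retina and lens list at 7.86 after M21 at 7.90, differed from it: slc6a4 (10.08) and fev (6.68) were the lowest of midbrain and tph2 (10.63) was level with its lowest value, in M123. Array M109, which has the number of T109, was inside the midbrain range for tph2 (11.50) and for crx.

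Between wild and domesticated fish no difference passed for any of the 4 genes, in either region. In telencephalon 1.91% of all genes passed this comparison and in midbrain 0.786%. The largest difference was that of tph2 in telencephalon. It ran from 4.52 over 7.76 to 8.34 in the 8 wild fish and from 7.75 over 8.53 to 13.57 in the 7 domesticated fish. The wild fish were mostly lower, but the groups overlapped between 7.75 and 8.34. The difference, wild minus domesticated, was -1.65 (SE 0.57, 95% interval -2.83 to -0.48, adjusted p = 0.139), and without T109 it was -1.10 (SE 0.40, adjusted p = 0.191).

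For the other genes in telencephalon the intervals spanned 0. The difference of slc6a4 was -0.47 (interval -1.08 to 0.15), that of fev -0.08 (-0.63 to 0.47) and that of htr7a 0.24 (-0.11 to 0.59). In midbrain they were -0.34 (-0.94 to 0.25) for slc6a4, -0.18 (-1.32 to 0.96) for tph2, -0.24 (-0.77 to 0.29) for fev and 0.13 (-0.21 to 0.47) for htr7a. Differences of up to about 1 on the log2 scale in either direction are thus within the interval for tph2 in midbrain, and the data do not show equal levels. The fit takes 1 spread per gene over both regions. In telencephalon and midbrain the SDs were 1.84 and 0.38 for tph2, and 1.01 and 0.37 for slc6a4. The midbrain intervals of these 2 genes therefore also carry the telencephalon spread and do not measure that of midbrain alone. Their telencephalon intervals, also those for sex below, carry the smaller midbrain spread and understate the spread within telencephalon. The change of this difference between regions passed for 0.0192% of genes and for none of the 4, with -1.47 (SE 0.79) for tph2 and between -0.12 and 0.15 for the others (adjusted p = 0.999 each).

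Single populations were compared next, since each origin holds 2 of them. Mean levels of tph2 in telencephalon were 7.03 ± 1.69 in Pargana, 7.58 ± 0.81 in Nadia, 8.36 ± 0.15 in Scientific Hatchery (n = 3) and 9.72 ± 2.61 in Transgenic Mosaic 1 (SD, n = 4 unless given). The last became 8.44 ± 0.65 without T109 (SD, n = 3). In midbrain the order was Nadia 10.96 ± 0.23, Scientific Hatchery 11.15 ± 0.40, Pargana 11.30 ± 0.53 and Transgenic Mosaic 1 11.52 ± 0.09 (SD, n = 4 each). Each step in both orders was smaller than the larger SD of the 2 populations it separates.

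The transporter slc6a4 averaged 6.17 ± 0.79 in Pargana, 6.20 ± 0.55 in Scientific Hatchery (n = 3), 6.37 ± 0.75 in Nadia and 7.43 ± 1.41 in Transgenic Mosaic 1 telencephalon (SD, n = 4 unless given), the last being 6.80 ± 0.75 without T109 (SD, n = 3). Its midbrain means were 10.44 ± 0.30 in Nadia, 10.96 ± 0.38 in Pargana, and 11.06 in both Transgenic Mosaic 1 (SD 0.12) and Scientific Hatchery (SD 0.31). The Nadia mean was below the next by more than either SD, the only such step for this gene. In telencephalon fev averaged 5.55 ± 0.59 in Transgenic Mosaic 1, 5.93 ± 0.74 in Nadia, 6.26 ± 0.46 in Pargana and 6.77 ± 0.35 in Scientific Hatchery, whose step from Pargana also exceeded both SDs. In midbrain fev ran from 7.71 ± 0.72 in Nadia to 8.43 ± 0.34 in Transgenic Mosaic 1. The htr7a means lay within 11.03 to 11.34 in telencephalon and 7.93 to 8.13 in midbrain, all steps being smaller than the SDs.

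By the F test across the 4 populations no gene of the set passed in telencephalon, where 6.44% of all genes did: F was 4.71 for slc6a4 (adjusted p = 0.0914), 4.53 for tph2 (adjusted p = 0.0995), 3.72 for fev (adjusted p = 0.15) and 0.78 for htr7a (adjusted p = 0.713). None passed in midbrain either, where the background was 3.29% and adjusted p-values were between 0.61 and 0.972. In telencephalon the F of slc6a4 passed in 3 of 46 alternatives. They were the fit without Nadia and the fits without T63, at 6.53 (adjusted p = 0.0428), and without T130, at 7.46 (adjusted p = 0.0296). Without T109 the F of slc6a4 was 1.97 (adjusted p = 0.41). The F of tph2 in telencephalon was 2.96 without T109.

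Of 48 differences between 2 populations (6 pairs, 2 regions, 4 genes), 1 passed: tph2 in telencephalon, lower in Pargana than in Transgenic Mosaic 1. Pargana fish stood at 8.19, 7.89, 7.49 and 4.52, against 13.57, 9.03, 8.55 and 7.75 in Transgenic Mosaic 1. The highest 2 Pargana values lay above the lowest Transgenic Mosaic 1 value, so the groups overlapped. The difference of -2.70 (SE 0.77, adjusted p = 0.0414) passed where 5.49% of all genes did. It rests on the extreme array of each group: it was -1.48 without T109 (SE 0.57, adjusted p = 0.17), where 2.95% of genes passed, and -1.97 without T140, the Pargana male at 4.52 (adjusted p = 0.152). It also lost the threshold without T21 (adjusted p = 0.0565), T13 (0.079) or M12 (0.05), and held in the other 26 fits that leave out 1 array. Other settings that ended the call were array weights (-1.88, adjusted p = 0.123), each region fitted alone (adjusted p = 0.213), and leaving out Nadia (0.0581), Scientific Hatchery (0.079), the arrays numbered 21 (0.0617) or both T109 and M21 (0.171).

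In the other pairs in telencephalon no member passed, beside 2.08% of all genes in Nadia against Pargana, 0.997% in Nadia against Scientific Hatchery, 2.52% in Nadia against Transgenic Mosaic 1, 1.02% in Pargana against Scientific Hatchery and 1.62% in Scientific Hatchery against Transgenic Mosaic 1. In midbrain no member passed in any pair, beside 1.41%, 0.435% and 1.62% of genes for Nadia against Pargana, Scientific Hatchery and Transgenic Mosaic 1, 0.818% and 1.69% for Pargana against Scientific Hatchery and Transgenic Mosaic 1, and 0.939% for Scientific Hatchery against Transgenic Mosaic 1. Nearest to the threshold among these 47 was slc6a4 in telencephalon, again Pargana minus Transgenic Mosaic 1, at -1.26 (SE 0.40, adjusted p = 0.0655).

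No difference between males and females passed the threshold in any of the 4 genes. Sex differences were rare over all genes, at 0.032% in telencephalon and 0.00639% in midbrain. The largest among the 4 in units of its error was slc6a4 in telencephalon, which ran from 5.43 over 6.07 to 6.75 in the 7 males and from 5.47 over 6.93 to 9.33 in the 8 females. The lowest values were alike, while 4 females but no male were above 6.75. Male minus female was -0.98 (SE 0.30, 95% interval -1.59 to -0.37, adjusted p = 0.29), and -0.70 without T109 (SE 0.25, adjusted p = 0.33). An earlier analysis of these data doubted the sex label of Pargana number 21, which is taken as female here. Without its 2 arrays the difference was -1.11 (SE 0.31, adjusted p = 0.224), and again 0 of the 4 genes passed.

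For tph2 in telencephalon the sex difference was -1.04 (interval -2.22 to 0.14), and -0.38 (SE 0.40) without T109, which is a female. It was 0.20 for fev (-0.35 to 0.75) and -0.10 for htr7a (-0.45 to 0.25). In midbrain the sexes overlapped widely: slc6a4 averaged 10.80 ± 0.45 in males and 10.95 ± 0.31 in females, tph2 11.13 ± 0.34 in males and 11.31 ± 0.41 in females, fev 8.10 ± 0.68 in males and 8.09 ± 0.36 in females, and htr7a 8.12 ± 0.32 in males and 7.99 ± 0.29 in females (SD, n = 7 males and 9 females). The sex difference did not change between regions past the threshold for any of the 15648 genes (0% by limma, with 515 genes at an unadjusted p under 0.05). For slc6a4 this change was -0.87 (SE 0.42).

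Array to array within midbrain, slc6a4 and tph2 varied together, while the relations of fev with them depended on the measure or on the arrays included. Over the 16 midbrain arrays slc6a4 and tph2 correlated at r = 0.801 (permutation p = 0.00021, adjusted p = 0.00252 over the 12 relations computed) and Spearman's rho = 0.823 (permutation p = 0.00022, adjusted p = 0.00264). With population means removed r was 0.848 (adjusted p = 2.4e-04), without M98 and M106, the arrays farthest from the median of slc6a4, 0.759 (adjusted p = 0.0164), and without M21 0.758 (adjusted p = 0.00576). The pair therefore kept its relation in each of these.

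For tph2 and fev r was 0.691 (permutation p = 0.00316, adjusted p = 0.0126) and Spearman's rho 0.611 (permutation p = 0.0139, adjusted p = 0.0836), with r = 0.557 after removal of population means (adjusted p = 0.107), 0.717 without M21 and M63, and 0.767 without M21 alone. The relation of slc6a4 with fev was less steady: r was 0.626 (permutation p = 0.00999, adjusted p = 0.03) and Spearman's rho 0.385 (permutation p = 0.139, adjusted p = 0.335), and without M98 and M106 r was 0.427 (adjusted p = 0.26), so that the relation did not hold without these 2 arrays. M98 was low in both genes (10.08 and 6.68), whereas M106 was low in slc6a4 (10.31) and not in fev (8.18). The receptor gene htr7a followed none of them in midbrain, with r = -0.243 against slc6a4 and -0.148 against tph2 and adjusted p-values of 0.553 or more for all 3 pairs. The number of serotonin cells in each sample was not measured, and its part in these relations was not tested.

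**Figure D4:**
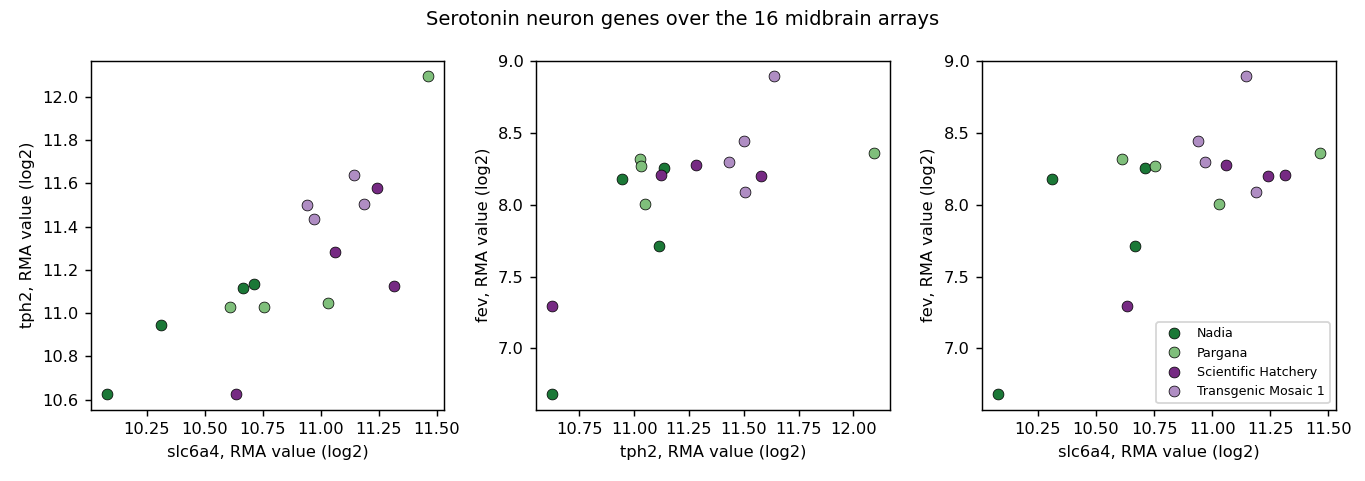
Log2 RMA values of slc6a4, tph2 and fev against each other on the 16 midbrain arrays, coloured by population. Arrays low in slc6a4 were low in tph2 (r = 0.801), and in the 2 panels with fev the lowest values are those of M98 (6.68) and M123 (7.29).

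In telencephalon slc6a4 and tph2 also correlated, at r = 0.793 over 15 arrays (permutation p = 0.00239, adjusted p = 0.0126), but Spearman's rho was 0.361 (permutation p = 0.188, adjusted p = 0.376). The relation rests on T109: r was 0.469 without it (adjusted p = 0.259) and 0.374 without T109 and T12 (adjusted p = 0.33). No other pair passed there, the strongest being tph2 with htr7a at r = -0.468 (permutation p = 0.0835, adjusted p = 0.2) and slc6a4 with fev at r = -0.392 (permutation p = 0.148, adjusted p = 0.296).

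Among the 12121 genes with a usable symbol, those most like each member over the arrays of its own high region were listed as a description, with correlations that share the arrays and their normalization. HSPB1, a small heat shock protein gene, was most like slc6a4 in midbrain (r = 0.877), followed by MGAT4A (0.823), nf2b (0.812), TPH2 (0.801) and ccl25b (0.797). IRX4, a homeobox gene, was most like tph2 (r = 0.873), followed by ccr2 (0.812), SLC6A4 (0.801), HSPB1 (0.767) and NUBPL (0.761). So tph2 and slc6a4 were among the 5 genes most like each other. Of the other partners, IRX4 at -3.10 (SE 0.16) and ccl25b at -0.78 (SE 0.25) were lower in telencephalon like these 2 genes, while nf2b at 0.51 (SE 0.05) and NUBPL at 0.25 (SE 0.07) were higher. HSPB1 (-0.17, SE 0.10), MGAT4A (0.03, SE 0.07) and ccr2 (-0.05, SE 0.16) did not pass.

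For fev the list was FBXL15 (r = 0.837), ARRB2 (0.835), plekhg2 (0.817), nudt7 (0.800) and gsg1l2b (0.784), with tph2 at rank 50 and slc6a4 at rank 144. In the regional comparison gsg1l2b (-1.73, SE 0.10), plekhg2 (-1.25, SE 0.14) and nudt7 (-0.63, SE 0.22) were lower in telencephalon like fev itself, while FBXL15 (0.64, SE 0.14) and ARRB2 (0.23, SE 0.05), the 2 most like it, were higher. For htr7a over the 15 telencephalon arrays it was TIMP2 (r = 0.888), MTMR10 (0.857), MAP3K10 (0.843), ARID4B (0.812) and LRRC30 (0.808). Of these 5, MTMR10 and TIMP2 were higher in telencephalon, at 0.78 (SE 0.10) and 0.20 (SE 0.05). ARID4B (-0.22, SE 0.05) and LRRC30 (-0.30, SE 0.12) were lower there, opposite to htr7a, and MAP3K10 (-0.10, SE 0.08) did not pass.

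The rest of the serotonin system was read from 4 lists of genes. In serotonin synthesis, storage, uptake and breakdown, 17 rows were measured for 17 of 22 listed genes: 8 were lower in telencephalon, 2 were higher and 7 did not pass, with a median difference of -0.08 against 0.01 over all genes. These 10 calls in 17 rows stand beside 43.6% of all genes. Besides tph2 and slc6a4, the large decreases in telencephalon were those of TPH1 ENSDARG00000029432 at -2.19 (SE 0.36), the second transporter gene slc6a4b at -1.95 (SE 0.28) and DDC at -1.52 (SE 0.29). SLC18A2, which loads serotonin and other amines into vesicles, fell by only 0.32 (SE 0.11), and GCH1 by 0.47 (SE 0.15). The degrading enzyme gene mao stood at 0.10 (SE 0.07) and did not pass. The 2 rises were PCBD1 at 0.54 (SE 0.10) and QDPR ENSDARG00000040190 at 0.44 (SE 0.08), both of cofactor recycling. The genes of cofactor handling, storage and breakdown thus differed little, whereas tph2, slc6a4, slc6a4b, DDC and 1 TPH1 row differed by more than 1.5. Without T109 the counts in this list were 8 lower and 3 higher.

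Of 13 rows for transcription factors that specify serotonin neurons, 9 were lower in telencephalon and 1 was higher, ascl1a at 0.75 (SE 0.13), with a median of -1.32. The share of all genes lower in telencephalon was 22.1%. Several of these factors also have wide roles outside serotonin neurons. GATA3 at -6.11 (SE 0.15) and GATA2 at -3.28 (SE 0.10) are factors of midbrain inhibitory neurons too, and EN1 at -4.26 (SE 0.20) and the EN2 rows at -3.40 (SE 0.14, ENSDARG00000038868) and -2.76 (SE 0.11, ENSDARG00000026599) mark the midbrain and its border with the hindbrain. LMX1B stood at -1.32 (SE 0.19), FOXA2 at -1.08 (SE 0.11) and fev at -1.95. INSM1 ENSDARG00000091756 was at -0.80 (SE 0.19) and its other row at 0.02, and gata2b and nkx2.9 did not pass either. The list holds EN1, EN2 and GATA3 in common with the midbrain markers.

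Among 10 receptor rows, 3 were higher and 1 was lower in telencephalon, with a median of -0.09. Beside 43.6% of all genes, 4 calls in 10 rows are near the background. At 3.12 htr7a, itself chosen with earlier results of these data known, was far ahead of htr2cl2 at 1.30 (SE 0.27) and HTR2A at 0.38 (SE 0.14). The decrease was that of HTR1A at -0.43 (SE 0.10). The other 6 rows, of htr1b, HTR1D, htr2cl1, HTR3B and HTR5A (2 rows), lay between -0.39 and 0.12 and did not pass. In the melatonin route, the receptor genes mtnr1ba at -3.06 (SE 0.23), mtnr1aa at -2.16 (SE 0.14) and MTNR1A at -1.08 (SE 0.10) were lower in telencephalon, aanat2 was higher at 1.78 (SE 0.37) and asmt2 stood at 0.18 (SE 0.15). T109 and M21 are the highest arrays of their regions in aanat2, as given above.

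In the comparisons of wild with domesticated fish and of males with females, and in the F tests across populations, 0 rows of these 4 lists passed in either region. Of all genes, 1.91% in telencephalon and 0.786% in midbrain passed for wild against domesticated fish. The shares were 0.032% and 0.00639% for sex, and 6.44% and 3.29% in the F tests. Between single populations 2 of the 45 rows passed, each in 1 pair with Transgenic Mosaic 1 telencephalon. In these pairs 5.49% of all genes passed against Pargana and 2.52% against Nadia, so the calls are no more frequent than the background. One is tph2, as given above. The other is PCBD1, the gene of a cofactor recycling enzyme, which stood at 9.69, 9.47, 9.20 and 8.93 in Nadia telencephalon, against 10.41 (T109), 10.07, 9.94 and 9.70 in Transgenic Mosaic 1 telencephalon. The 2 populations nearly met, at 9.69 in T7 and 9.70 in T12. The share of all genes without overlap in this pair was not counted. The difference of -0.71 (SE 0.19, adjusted p = 0.0482) was -0.58 without T109 (SE 0.20, adjusted p = 0.177). Like the tph2 difference, it does not pass without that array.

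**Figure D5:**
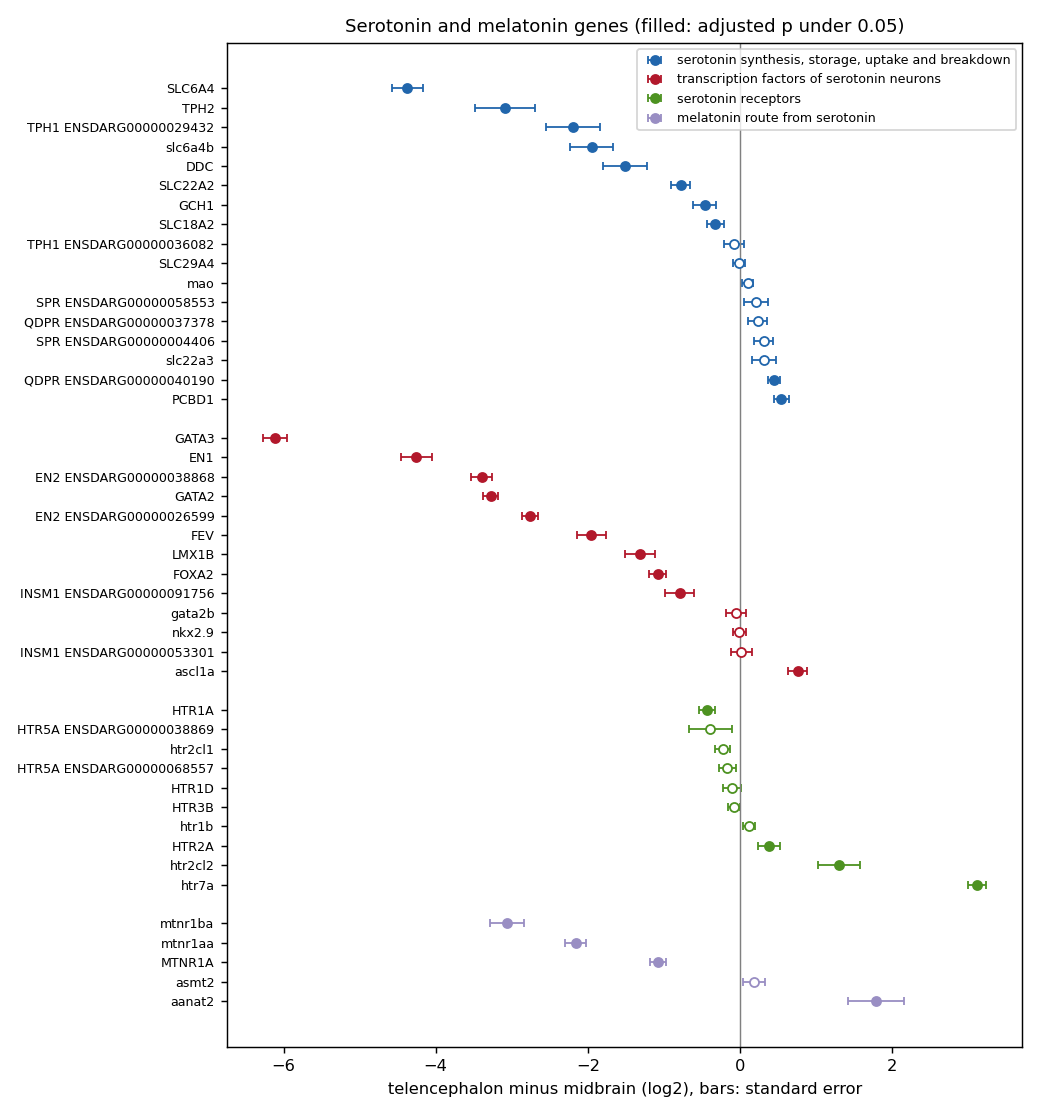
Difference between telencephalon and midbrain (log2, x axis, bars for the SE) of the rows measured in 4 serotonin and melatonin lists, filled where the adjusted p is under 0.05. SLC6A4, TPH2, GATA3 and the engrailed genes lie far to the left and htr7a alone far to the right, while most receptors and cofactor genes lie near 0.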

How the data were processed

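RNA of individual brain samples was measured on 31 one-colour arrays; per the labels' protocols it was Trizol-extracted, copied with random hexamers and labelled with Cy3. The log2 values analysed are those the authors deposited, made with RMA on Zv9 per the submitters' processing notes; the sources used here give no further settings. The arrays have nearly equal medians, so differences are relative to the rest of each array. One row without a gene (0.00639% of rows) was left out. Symbols came from a table of gene IDs that named 13251 of 15648 genes; coordinates and sequences were not used here.

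All genes were fitted with limma 3.58.1 (R 4.3.3), with 1 mean for each of the 8 groups and sex as a term in either region (21 residual degrees of freedom). P-values were adjusted by Benjamini-Hochberg over all 15648 genes at a threshold of 0.05. Correlations used 100000 permutations and were adjusted over 12 relations (Python 3.11.15, numpy 2.4.6). Fish numbers are shared by both regions: over 15 pairs, deviations from group means correlated at 0.12 to 0.54, so the numbers, taken from the labels' array codes, were taken to pair the samples. Of the 15 telencephalon arrays 13 matched their own number best within the population, while T98 matched M106 better and T106 matched M98 better. Blocked fits, array weights, other normalizations and filters, and leaving out each array, each population or the Pargana arrays numbered 21 (sex label doubted in an earlier analysis) were the alternatives. Per the labels the brain samples are individual. The main fit did not use the pairing, so its p-values rest on the spread between arrays within groups. That spread is 1 estimate per gene over both regions, also in the tests within a region.

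The 4 genes and all lists were chosen with earlier results of these data known. Named genes are the 4, list genes past 0.05 that differed by at least 1 on the log2 scale between regions or passed any other test, and the 5 genes most correlated with each of the 4. Smaller list differences, the other rows of a list and the genes of T109 and M21 were named after their values were seen. The fitting code was tested on simulated data. The number of arrays limits the precision. Some items are not reported here.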

Additional observations from a re-analysis of the deposited data

Results flagged for a closer look

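Of 28 groups of 4 arrays examined (7 groups of region and population for each of the 4 genes), 3 held an array far from the other 3, where chance alone flags about 1 in 20. In Pargana midbrain, tph2 stood at 12.09 in M21 with the nearest array at 11.05, and the gap filled 0.981 of the group's range. In Scientific Hatchery midbrain, fev stood at 7.29 in M123 with the nearest array at 8.20 (0.926 of the range), and htr7a stood at 8.52 in the same array with the nearest at 7.78 (0.888 of the range). Transgenic Mosaic 1 telencephalon, with T109 at 13.57 in tph2, did not meet this measure.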

How the results depend on the processing

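The regional difference kept its direction and its call for all 4 genes in all 46 alternatives run, over -4.60 to -4.17 for slc6a4, -3.47 to -2.69 for tph2, -2.21 to -1.61 for fev and 3.07 to 3.19 for htr7a. With fish number as a fixed block, fev in Scientific Hatchery was -1.12 (adjusted p = 0.187), against -1.17 (adjusted p = 0.0376) with a random block; the pairing changed no other call. The alternatives without both T109 and M21, and the correlations without 1 of them, were chosen after seeing the data.

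The count of population differences passing, F tests included, was 1. It was 2 without Nadia, where the tph2 difference between Pargana and Transgenic Mosaic 1 no longer passed and the telencephalon F test of slc6a4 did. It was 0 with array weights, without Scientific Hatchery, with each region fitted alone, without the arrays numbered 21, or without T109 and M21. It was also 0 without Pargana or without Transgenic Mosaic 1, where the difference that had passed could not be computed. Fits that leave out a population hold fewer of these tests. Leaving out single arrays gave 0 to 4. Correlations that lost their call were slc6a4 with fev in midbrain (0.527 with population means removed, 0.427 without 2 arrays, 0.630 without M21), tph2 with fev there (0.557 with population means removed), and slc6a4 with tph2 in telencephalon (0.374 without 2 arrays, 0.469 without T109).

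Signs turned only among differences that passed in no fit, and the cause was not tested. For fev, male minus female in midbrain (-0.02) became 0.088 with array weights, 0.177 without Nadia, 0.049 without Pargana and 0.0046 without the arrays numbered 21 or without T109 and M21. Its change between regions (0.22) became -0.080 with array weights, -0.042 without Nadia and -0.063 without Pargana. In telencephalon its sex difference (0.20) became -0.014 without Pargana. Wild minus domesticated for fev in telencephalon (-0.08) became 0.088 without Nadia and 0.545 without Scientific Hatchery; in midbrain (-0.24) 0.0046 without Nadia and 0.028 without Transgenic Mosaic 1; its change between regions (0.15) became -0.792 without Transgenic Mosaic 1. For slc6a4 that change (-0.12) became 0.243 without Pargana, 0.487 without Transgenic Mosaic 1, 0.098 without the arrays numbered 21 and 0.205 without T109 and M21. Without Transgenic Mosaic 1, wild minus domesticated also became 0.163 for slc6a4 in telencephalon and 0.056 for tph2 in midbrain, and male minus female -0.034 for htr7a in midbrain and 0.071 for the change of tph2 between regions. Without Nadia, male minus female became 0.160 for htr7a in telencephalon and 0.026 for slc6a4 in midbrain. The correlation of fev with htr7a in midbrain became 0.028 with population means removed and 0.132 without 2 arrays, and that of tph2 with fev in telencephalon 0.144.

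When single arrays were left out, signs also turned for wild minus domesticated of fev in telencephalon (-0.27 to 0.026), its change between regions for fev (-0.034 to 0.265) and slc6a4 (-0.295 to 0.158), and male minus female of htr7a in telencephalon (-0.185 to 0.00047) and of fev in midbrain (-0.111 to 0.180).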
